A study of Mus musculus with 9 samples.

Results

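The genes described here encode the unfolded protein response and the integrated stress response of the mouse colon, 35 genes chosen by name from the 21959 genes of the deposited table. Their transcripts were measured by poly-A RNA sequencing of colon tissue in 9 libraries, 3 in each of 3 groups of wild-type mice. Mice of the Blank group were untreated, mice of the Model group were given dextran sulfate sodium (DSS), a polymer that injures the colon lining and causes colitis, and mice of the CDs group received, besides DSS, lotus node charcoal carbon dots, small carbon particles made from charred plant material. The series states that replicates are biological. The labels used here give no strain, age, sex, dose or schedule. All 35 members passed the filter on low counts. By role they comprise 14 chaperones and folding enzymes of the endoplasmic reticulum (ER), 8 genes of ER-associated degradation, 5 target genes of the transcription factor ATF4, and 8 sensors, transcription factors and feedback genes.

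Secreted and membrane proteins fold in the ER with the help of chaperones and of enzymes that form disulfide bonds. When unfolded proteins accumulate there, the sensors IRE1, PERK and ATF6 activate the transcription factors XBP1, ATF4 and the cleaved form of ATF6, which raise transcription of chaperones and of the machinery that exports misfolded proteins for destruction by the proteasome. PERK acts by phosphorylating the initiation factor eIF2, which lowers general translation and favours translation of ATF4. Other kinases that sense amino acid shortage, viral RNA or heme deficiency act on the same factor, and this wider circuit is called the integrated stress response. In the gut the pathway is studied above all in goblet cells, which secrete mucin and express a further IRE1 gene, Ern2, and in plasma cells, which secrete antibody.

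Transcription factors of the pathway recognise short promoter elements, and the stretches that hold them are shown for 8 members because the groups below are ordered by these factors. ERSE, the ER stress response element, was searched as CCAAT followed by 9 bases of any kind and CCACG. ERSE-II was searched as ATTGG, 1 base of any kind and CCACG, the element UPRE as TGACGTGG, and the ATF4 element as TGATGNAAN, all on both strands. RefSeq promoter windows of 300 bases (250 before and 50 after the start of the gene, build GRCm38.p6) matched 29 of the 35 members. ERSE occurred in 9 of these 29 (Hspa5, Hsp90b1, Calr, Canx, Pdia6, Dnajc3, Creld2, Derl3 and Syvn1) and in 0.137% of all 27025 genes with a window. ERSE-II occurred in Herpud1 and Dnajb11, and in 0.0444% of these genes. The ATF4 element occurred in 4 of the 29 (Asns, Chac1, Trib3 and Herpud1) and in 4.5% of all genes with a window. UPRE occurred in 0 of the 29 and 0.714% of all. Matches are descriptions of letters and do not show binding. Each sequence below runs 5′ to 3′ on the strand of its gene, with the matched element in capitals.
Hspa5, chr2:34771980-34772089, plus strand: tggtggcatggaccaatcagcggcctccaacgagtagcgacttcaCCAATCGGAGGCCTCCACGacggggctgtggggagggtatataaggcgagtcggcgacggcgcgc
Hsp90b1, chr10:86705525-86705664, minus strand: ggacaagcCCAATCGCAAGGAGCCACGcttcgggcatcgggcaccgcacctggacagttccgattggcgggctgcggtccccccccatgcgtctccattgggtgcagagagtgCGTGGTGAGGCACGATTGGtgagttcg
Creld2, chr15:88819496-88819565, plus strand: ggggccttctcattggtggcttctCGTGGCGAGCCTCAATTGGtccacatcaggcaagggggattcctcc
Derl3, chr10:75893218-75893287, plus strand: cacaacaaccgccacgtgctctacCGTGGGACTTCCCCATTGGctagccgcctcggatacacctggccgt
Syvn1, chr19:6046506-6046575, plus strand: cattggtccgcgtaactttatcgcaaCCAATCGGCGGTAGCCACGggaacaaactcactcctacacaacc
Herpud1, chr8:94386299-94386408, plus strand: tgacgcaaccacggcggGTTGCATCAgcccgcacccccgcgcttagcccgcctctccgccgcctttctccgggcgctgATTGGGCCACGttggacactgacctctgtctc
Chac1, chr2:119351022-119351081, plus strand: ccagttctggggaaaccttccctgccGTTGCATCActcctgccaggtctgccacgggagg
Asns, chr6:7693210-7693269, minus strand: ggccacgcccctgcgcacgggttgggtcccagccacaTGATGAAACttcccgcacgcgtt
The Hspa5 element lay 65 bases before the start, and the pair in Hsp90b1 began 212 and 107 bases before it. Among the 8 genes shown, opposite-strand matches were those of Creld2 and Derl3 and the nearer of the Hsp90b1 pair. The ATF4 elements of Herpud1 and Chac1 also lay on the opposite strand. Herpud1 was the only member with both an ERSE-II match and a match to the ATF4 element.

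Libraries held 13868864 to 19940300 counted reads. Positions of genes are printed as deposited, and the labels used here name no build for that table. Members spanned a wide range of levels, from Pdia3 at 278 and Calr at 263 FPKM (reads scaled to gene length and library total) in Blank down to Chac1 at 0.676 and Trib3 at 0.321 FPKM, so that Trib3 rested on 8 to 59 reads per library and Chac1 on 15 to 91. Some libraries contained transcripts of neighbouring organs. A list of 17 pancreatic acinar genes summed to 83095 CPM (reads scaled to library size) in Model 3, 9913 in Model 1 and 411 in CDs 1, where all 17 had reads, and to between 30.6 and 232 CPM in the others, where 7 to 9 of the 17 had reads. A list of 9 prostate and seminal vesicle genes summed to 1629 CPM in Blank 2, 292 CPM in Blank 3 and 83.5 to 287 CPM in the other 7 libraries. In those 7 nearly all of the sum came from Spink1, which had 81.3 to 286 CPM in every library. The 8 genes besides Spink1, a split made after their values were seen, summed to 1531 CPM in Blank 2, 173 CPM in Blank 3 and 1.02 to 2.57 CPM elsewhere. Defining markers of epithelium, goblet cells and plasma cells had reads in every library. Counts of members are also given without the 3 libraries that hold pancreatic transcripts and without Blank 2 and Blank 3. The former setting leaves Model 2 as the only Model library, and the latter leaves Blank 1 as the only untreated library. The spread of the lone library is then taken to equal that of the remaining groups.

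In colitis 10 members rose and 2 fell. The comparison of Model with Blank asks how untreated and DSS-treated colon differ. Of the 35 members, 10 were higher and 2 lower in Model, by edgeR's quasi-likelihood test with Benjamini-Hochberg adjustment over all genes (adjusted p under 0.05, hereafter called). Among all 14921 genes tested, 24.5% were called higher and 19.6% lower, so the share of members called higher (28.6%) was near that of all genes, and the share called lower (5.71%) was below it. The members called higher were the chaperones Hspa5, Hyou1 and Dnajb9, the degradation genes Herpud1, Sel1l and Derl3, the ATF4 targets Trib3, Chac1 and Ddit3, and the feedback gene Ppp1r15a. The 2 called lower were Ern2 and Creb3l1. The median log2 fold change was 0.30 over members and -0.03 over all genes. All 3 Model libraries lay above all 3 Blank libraries for 20 members and below them for 3, while the same held for 30.0% and 31.0% of all genes.

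Markers of other cell types moved in the same comparison. All 8 fibroblast markers were called higher in Model (median log2 fold change 1.82), with sums of 1820 to 2092 CPM in Blank, 5180 to 11590 CPM in Model and 5526 to 6395 CPM in CDs. Of 10 macrophage and neutrophil markers, 9 were called higher (median 2.69), with sums of 440 to 605 CPM in Blank, 1500 to 3310 CPM in Model and 1996 to 2904 CPM in CDs. Both sums were highest in Model 2, the library in which 10 of the 35 members also had their highest level. No fibroblast marker was at 0 in any library, and 1 of the 10 macrophage and neutrophil markers was at 0 in Blank 2. The part of these cells in the members' rise was not tested.

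**Figure D1:**
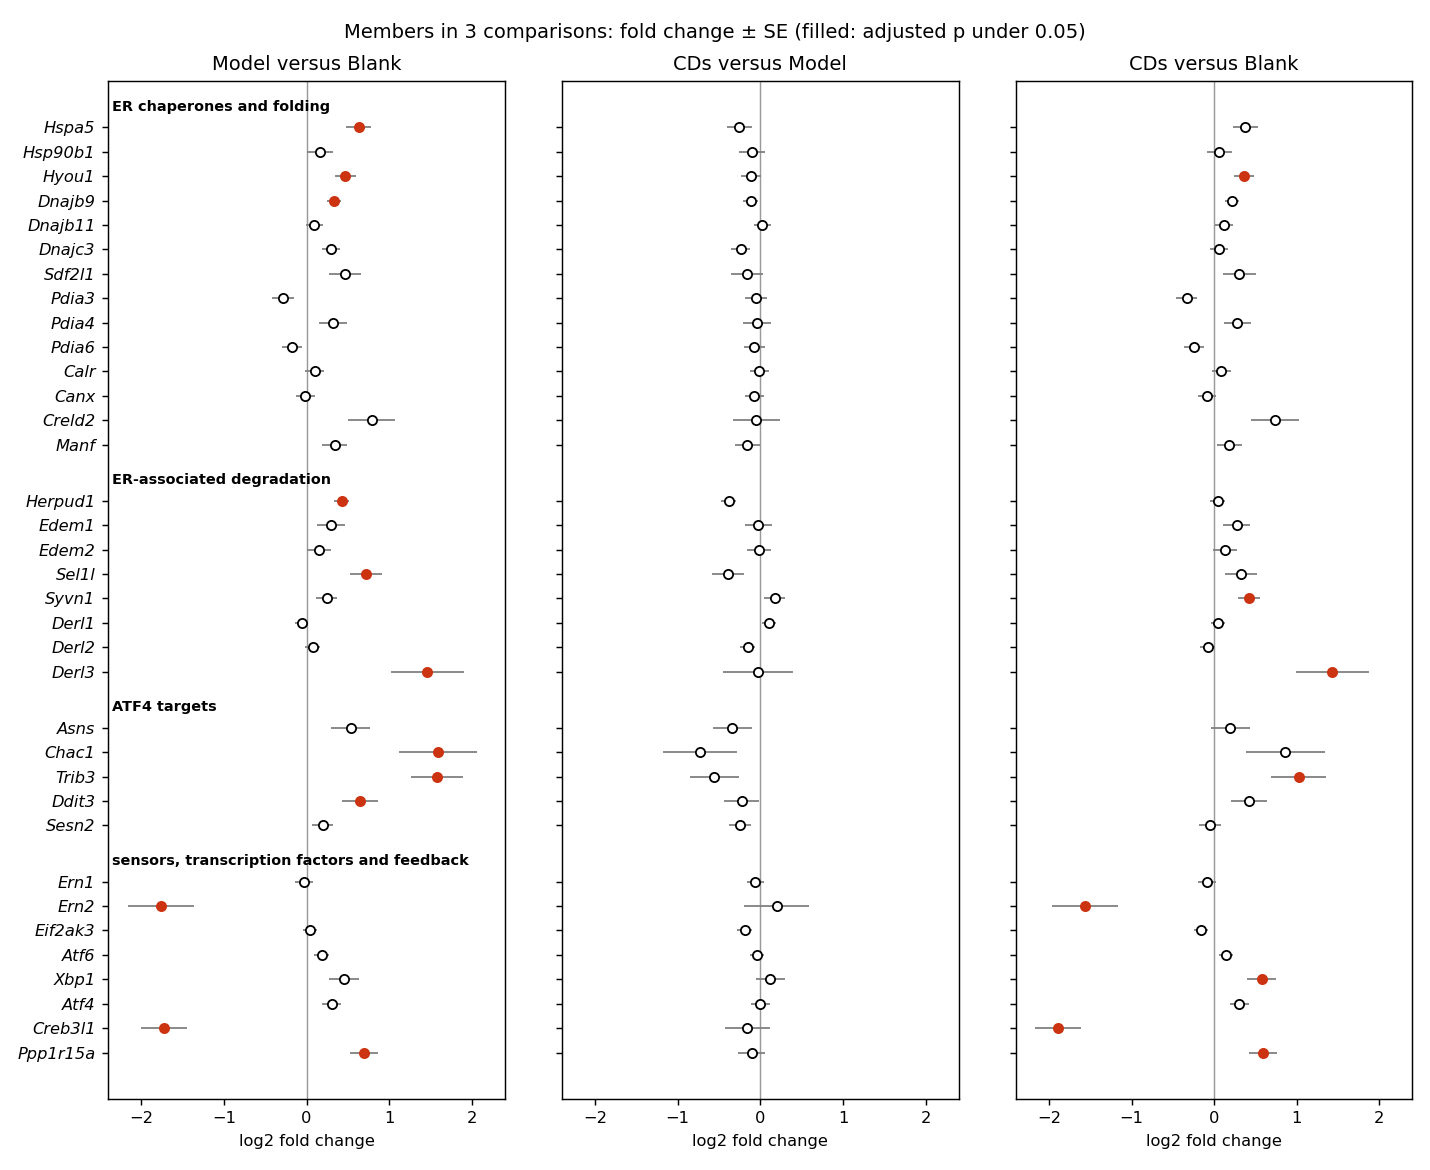
Log2 fold change of each of the 35 members (points) with its standard error (bars) in the 3 comparisons, grouped by role, with called members filled. Model versus Blank has 12 filled points, CDs versus Model has 0 and CDs versus Blank has 8, and Ern2 and Creb3l1 are the members far below 0 in both comparisons with Blank, which share the Blank libraries.

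Without the 3 libraries with pancreatic transcripts, Model versus Blank sets Model 2 alone against the Blank libraries. Values in that setting rest on this library, in which 10 of the 35 members had their highest level. Without Blank 2 and Blank 3, 0 were called higher and only Creb3l1 was called lower, beside 7.88% and 2.06% of all genes, so that 1536 genes were called instead of 6574. Without Blank 2 alone, 8 members were called higher and 2 lower, beside 2940 and 1770 of all 15108 genes tested. The 12 called members kept the direction of their change in each of the 18 alternative analyses, those 2 included. In bulk tissue, fewer cells of a type and less RNA per cell cannot be told apart.

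Among the chaperones, 3 of 14 members were higher in Model (21.4%) and 0 were lower, beside 24.5% and 19.6% of all genes. Their median log2 fold change was 0.31. Hspa5 (chr2:34661982-34667559, plus strand) encodes BiP, the main ER chaperone of the Hsp70 family and a repressor of the 3 stress sensors. It measured 527, 598 and 547 CPM in Blank, 801, 980 and 804 CPM in Model and 839, 690 and 640 CPM in CDs. Every DSS-treated library lay above every Blank library, and Model 2 was the highest of the 9. The log2 fold change in Model was 0.63 ± 0.15 (SE, n = 3 per group, edgeR adjusted p = 0.0105), a 1.55-fold level. Hyou1, an ER chaperone that acts as nucleotide exchange factor for BiP, measured 111, 109 and 110 CPM in Blank, 148, 154 and 154 CPM in Model and 170, 129 and 124 CPM in CDs. Its Blank libraries differed little from each other (109.8 ± 0.861 CPM, SD, n = 3), and all treated libraries lay above them. Hyou1 rose by 0.47 ± 0.12 on the log2 scale in Model (edgeR adjusted p = 0.0143). Dnajb9 encodes ERdj4, a co-chaperone that brings BiP to IRE1 and to misfolded proteins. Its levels were 80.2, 82.4 and 85.7 CPM in Blank, 109, 109 and 95.1 CPM in Model and 90.3, 96.3 and 102 CPM in CDs. Treated and Blank libraries again did not overlap, and the rise in Model was small, 0.33 ± 0.09 on the log2 scale (edgeR adjusted p = 0.0168). Leaving out Model 2 ended the call of Dnajb9.

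The other chaperones did not pass the test, and they fell into 2 patterns. Creld2 and Sdf2l1, small ER stress-induced proteins, Manf, a secreted ER factor, Dnajc3, an ER co-chaperone that also inhibits eIF2 kinases, and the disulfide isomerase Pdia4 had positive fold changes between 0.30 and 0.79 (log2), with adjusted p from 0.0511 to 0.144. Creld2 came closest, with 31.1, 39.0 and 28.5 CPM in Blank and 47.5, 75.6 and 46.7 CPM in Model, a difference of 0.79 ± 0.29 on the log2 scale (edgeR adjusted p = 0.0511). Creld2 was called higher in 8 of the 18 alternatives, among them the replicate block (adjusted p = 0.0453) and DESeq2 (adjusted p = 0.0243). Without the libraries with pancreatic transcripts, where Model 2 is the only Model library, it stood at 1.20 on the log2 scale. In that setting Sdf2l1 was at 0.72, Pdia4 at 0.58 and Manf at 0.57. For each of these 5 genes, grouped here by their positive values, the lowest Model library exceeded the highest Blank library, as in 30.0% of all genes. The margin was very small for Dnajc3 (215.3 against 215.1 CPM), Manf (75.5 against 74.4 CPM) and Pdia4 (156.2 against 154.9 CPM). It was wider for Creld2 (46.7 against 39.0 CPM) and Sdf2l1 (29.8 against 27.2 CPM). Manf overlaps Dcaf1 over 79.5% of its span on the opposite strand and Rbm15b on the same strand, so its count is uncertain. Several abundant folding genes differed less: Hsp90b1, the ER form of Hsp90, the lectin chaperones Calr and Canx, which hold glycoproteins during folding, and the BiP co-chaperone Dnajb11 had log2 fold changes between -0.01 and 0.16 and overlapping groups. The disulfide isomerases Pdia3 and Pdia6 had negative values. Pdia3, the member with the highest FPKM in Blank, where Calr exceeded it in Model and CDs, measured 883, 934 and 881 CPM in Blank and 832, 701 and 685 CPM in Model. Its Model libraries all lay below its Blank libraries, but the log2 fold change of -0.28 ± 0.13 did not pass the test (edgeR adjusted p = 0.105). Pdia3 was called lower in 3 of the 18 alternatives, among them DESeq2 (adjusted p = 0.0211) and the fit without Model 1 (adjusted p = 0.0427). Without the libraries with pancreatic transcripts, which leaves Model 2 alone in its group, Pdia3 was at -0.36.

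**Figure D2:**
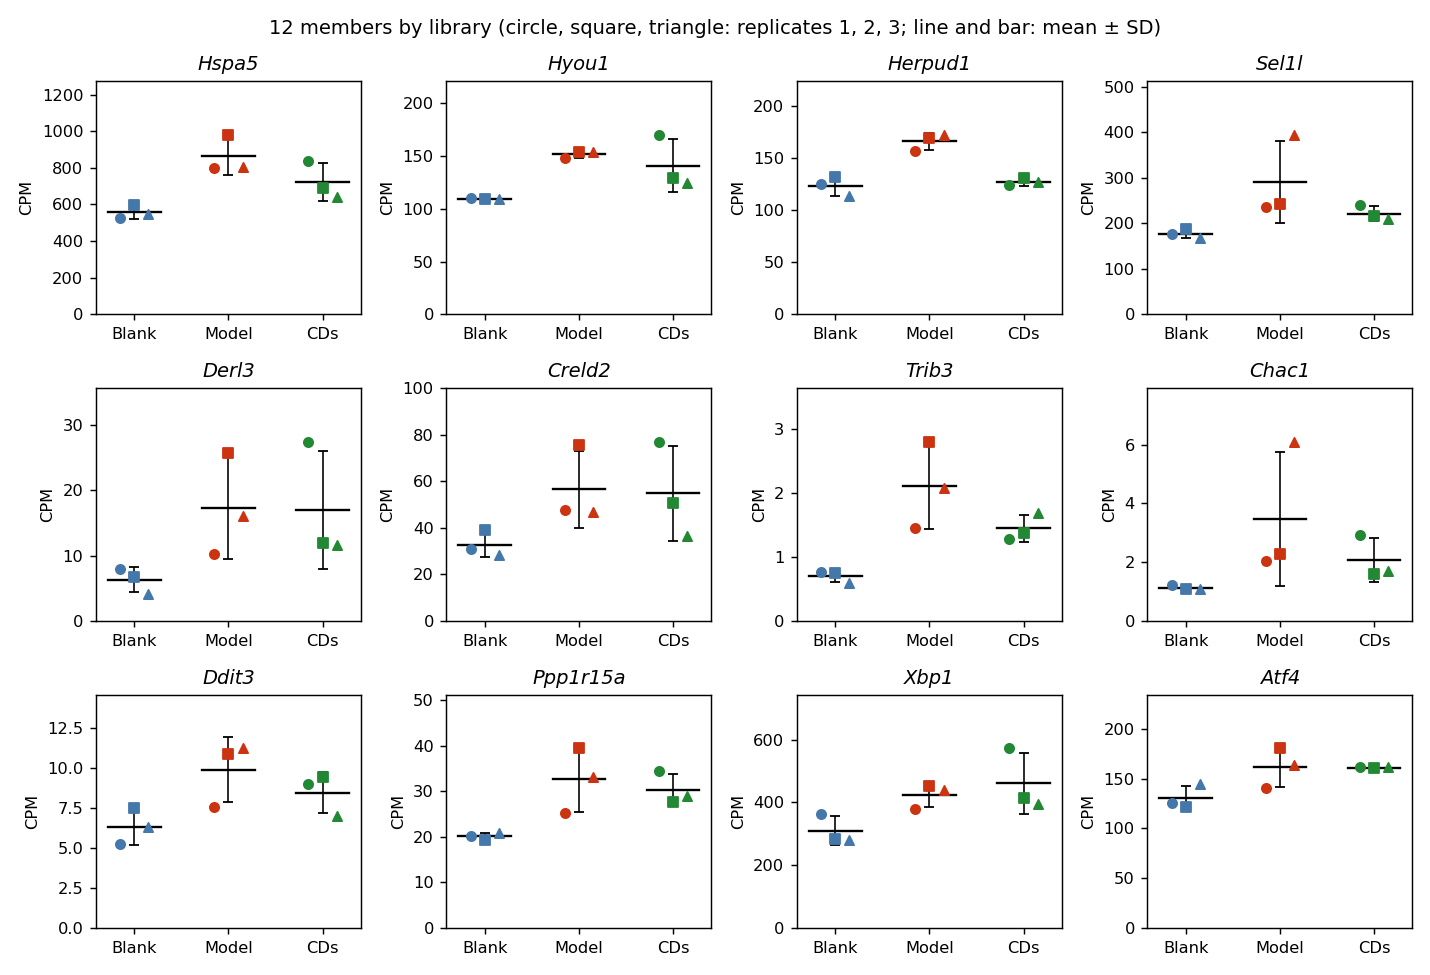
Level in CPM of 12 members in each of the 9 libraries (points, shaped by replicate number) with the group mean and SD (line and bar). Hspa5, Hyou1 and Ppp1r15a lie above Blank in every DSS-treated library, Herpud1 is separate from Blank in Model and overlaps it in CDs, and the highest point of Chac1 and Sel1l is Model 3.

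ER-associated degradation carries misfolded proteins out of the ER for ubiquitination. Of its 8 members, 3 were higher in Model (37.5%) and 0 lower, beside 24.5% and 19.6% of all genes. Their median log2 fold change was 0.27. Herpud1 (chr8:95113066-95122005, plus strand) encodes a scaffold protein of the degradation complex. It measured 126, 132 and 113 CPM in Blank, 157, 169 and 173 CPM in Model and 124, 131 and 127 CPM in CDs. The Model libraries stood above all 6 others, and the CDs libraries fell within the Blank range. Its rise in Model was 0.43 ± 0.09 on the log2 scale (edgeR adjusted p = 0.00583). Sel1l, the adaptor of the ubiquitin ligase HRD1, measured 177, 187 and 167 CPM in Blank, 235, 242 and 394 CPM in Model and 240, 215 and 209 CPM in CDs. Model 3, the library with the most pancreatic transcripts, was far above its 2 group mates, while all treated libraries lay above Blank. The log2 fold change of Sel1l was 0.72 ± 0.19 (edgeR adjusted p = 0.0168) with Model 3 and 0.44 (adjusted p = 0.0236) without it. Leaving out Blank 3 ended this call (adjusted p = 0.0598).

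Derl3, one of the derlins that form part of the export channel, measured 7.97, 6.72 and 4.21 CPM in Blank, 10.3, 25.7 and 16.0 CPM in Model and 27.4, 12.02 and 11.6 CPM in CDs. The groups of treated and untreated mice did not overlap, but the treated libraries spread over a wide range, led by CDs 1 and Model 2. Its log2 fold change in Model was 1.46 ± 0.44 (edgeR adjusted p = 0.0265), and the call was lost without Blank 2, Blank 3, Model 2 or Model 3 (adjusted p from 0.0560 to 0.0984). The sum of 10 plasma cell markers was also highest in CDs 1 (5710 CPM) and Model 2 (4244 CPM), ranged from 1504 to 3418 CPM in Blank, and had 4 of 10 genes called higher in Model. The part of plasma cells in the Derl3 result was not tested. The paralogues Derl1 and Derl2 had log2 fold changes of -0.06 and 0.07. Syvn1, which encodes HRD1 itself, and Edem1 and Edem2, lectin-like proteins that direct glycoproteins to degradation, were at 0.25, 0.29 and 0.16 and were not called (edgeR adjusted p from 0.148 to 0.407).

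**Figure D3:**
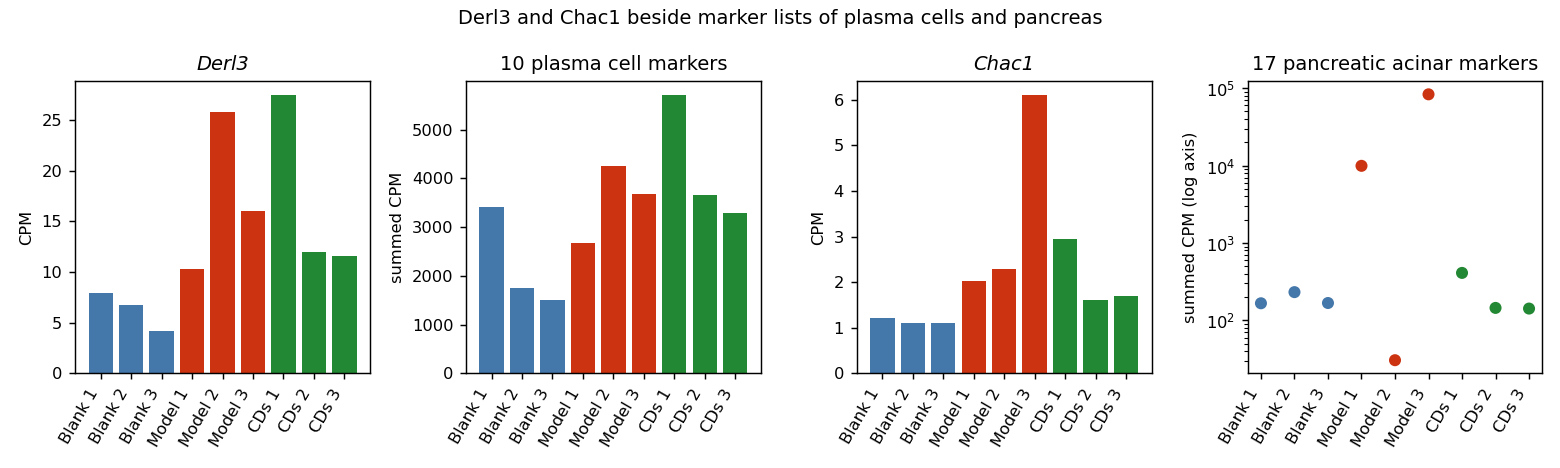
Derl3 and Chac1 by library in CPM, beside the summed CPM of 10 plasma cell markers and of 17 pancreatic acinar markers (the last on a log axis). Derl3 and the plasma cell sum are both highest in CDs 1, and Chac1 and the pancreatic sum are both highest in Model 3.

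ATF4 raises genes of amino acid supply and of stress signalling. Each of its 5 targets was higher in all 3 Model libraries than in all 3 Blank libraries, as were 30.0% of all genes. Of the 5, 3 passed the test, beside 24.5% of all genes, and the median log2 fold change was 0.65. Trib3 (chr2:152179342-152185952, minus strand), a pseudokinase that feeds back on ATF4, measured 0.772, 0.755 and 0.590 CPM in Blank, 1.45, 2.80 and 2.08 CPM in Model and 1.28, 1.38 and 1.69 CPM in CDs. All treated libraries lay above Blank, at low counts. The log2 fold change in Model was 1.58 ± 0.32 (edgeR adjusted p = 0.00489), a 2.99-fold level, and it was called without any single library, but not without both Blank 2 and Blank 3 (adjusted p = 0.117). Chac1 (chr2:119181710-119184862, plus strand), an enzyme that degrades glutathione, measured 1.22, 1.10 and 1.11 CPM in Blank, 2.03, 2.28 and 6.10 CPM in Model and 2.94, 1.61 and 1.69 CPM in CDs. Model 3 was the highest of the 9, and the remaining treated libraries were also above Blank. Chac1 rose by 1.59 ± 0.47 on the log2 scale (edgeR adjusted p = 0.0242). Without Model 3 the value was 0.92 (adjusted p = 0.0800), and without any 1 of the Blank libraries the call was also lost (adjusted p from 0.0602 to 0.0713). With the libraries holding pancreatic transcripts left out, where Model 2 is the only Model library, the Chac1 value was 0.99. The part of pancreatic RNA in the Chac1 level of Model 3 was not tested.

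Ddit3 (chr10:127126643-127132157, plus strand) encodes CHOP, a transcription factor linked to cell death under prolonged stress. It measured 5.21, 7.48 and 6.27 CPM in Blank, 7.55, 10.9 and 11.2 CPM in Model and 8.96, 9.39 and 6.98 CPM in CDs. The lowest Model library was barely above the highest Blank library, and the CDs libraries overlapped both groups. Its log2 fold change in Model was 0.65 ± 0.22 (edgeR adjusted p = 0.0376), lost without Blank 1, Blank 3, Model 2 or Model 3 (adjusted p from 0.0927 to 0.122). A further gene record, listed at 0 in all libraries, covers 53.0% of the span of Ddit3, and the labels used here do not say how reads shared by both were assigned, so this count is uncertain. Asns, asparagine synthetase, measured 26.9, 35.7 and 41.6 CPM in Blank, 44.4, 42.8 and 63.9 CPM in Model and 51.9, 33.2 and 34.3 CPM in CDs. Its Model libraries were above Blank by a narrow margin except for Model 3, and the log2 fold change of 0.53 ± 0.24 was not called (edgeR adjusted p = 0.0956). Sesn2, a stress-induced inhibitor of the growth kinase mTORC1, measured 11.06, 11.18 and 10.99 CPM in Blank, 12.2, 13.2 and 12.7 CPM in Model and 12.3, 9.69 and 10.2 CPM in CDs. Its groups did not overlap in Model and Blank, and the difference was 0.20 ± 0.13 on the log2 scale (edgeR adjusted p = 0.240).

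Of the sensor genes, Ern1, Eif2ak3 and Atf6 did not pass the test and Ern2 fell. Ern1, which encodes the widely expressed IRE1 alpha, measured 87.4, 82.3 and 78.4 CPM in Blank, 89.2, 69.7 and 84.6 CPM in Model and 80.0, 73.1 and 80.7 CPM in CDs. Eif2ak3, which encodes PERK, measured 54.5, 53.8 and 57.9 CPM in Blank, 56.0, 56.1 and 58.5 CPM in Model and 48.2, 47.0 and 54.2 CPM in CDs. Atf6 measured 126, 118 and 118 CPM in Blank, 134, 138 and 141 CPM in Model and 137, 122 and 141 CPM in CDs. Groups overlapped for Ern1 and Eif2ak3, and for Atf6 Model lay just above Blank. Their log2 fold changes in Model were -0.03 ± 0.11, 0.04 ± 0.09 and 0.18 ± 0.09, and none was called (edgeR adjusted p = 0.850, 0.744 and 0.117).

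Ern2 (chr7:121769116-121785430, minus strand) encodes IRE1 beta, the IRE1 form of mucin-secreting epithelium. It measured 112, 106 and 118 CPM in Blank, 51.7, 21.6 and 26.01 CPM in Model and 19.8, 37.8 and 56.2 CPM in CDs. Every treated library lay below every Blank library, and the lowest were CDs 1 and Model 2. The log2 fold change in Model was -1.76 ± 0.40 (edgeR adjusted p = 0.00808), a 3.40-fold lower level. Per gene length, Ern2 exceeded Ern1 by 3.54 to 4.15 times in Blank FPKM, while the ratio of Ern2 to Ern1 was 0.848 to 1.60 in Model and 0.684 to 1.92 in CDs. Ern2 was thus the more abundant IRE1 transcript in all Blank libraries and the less abundant in Model 2, Model 3 and CDs 1. Creb3l1 (chr2:91812673-91854847, minus strand) encodes OASIS, a membrane-bound transcription factor of the ATF6 type that serves secretory cells. It measured 335, 241 and 291 CPM in Blank, 111, 70.6 and 80.0 CPM in Model and 50.6, 76.3 and 107 CPM in CDs. Groups were widely separate, and the log2 fold change in Model was -1.73 ± 0.28 (edgeR adjusted p = 0.00174), a 3.32-fold lower level. It was the only member called in each of the 18 alternatives.

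**Figure D4:**
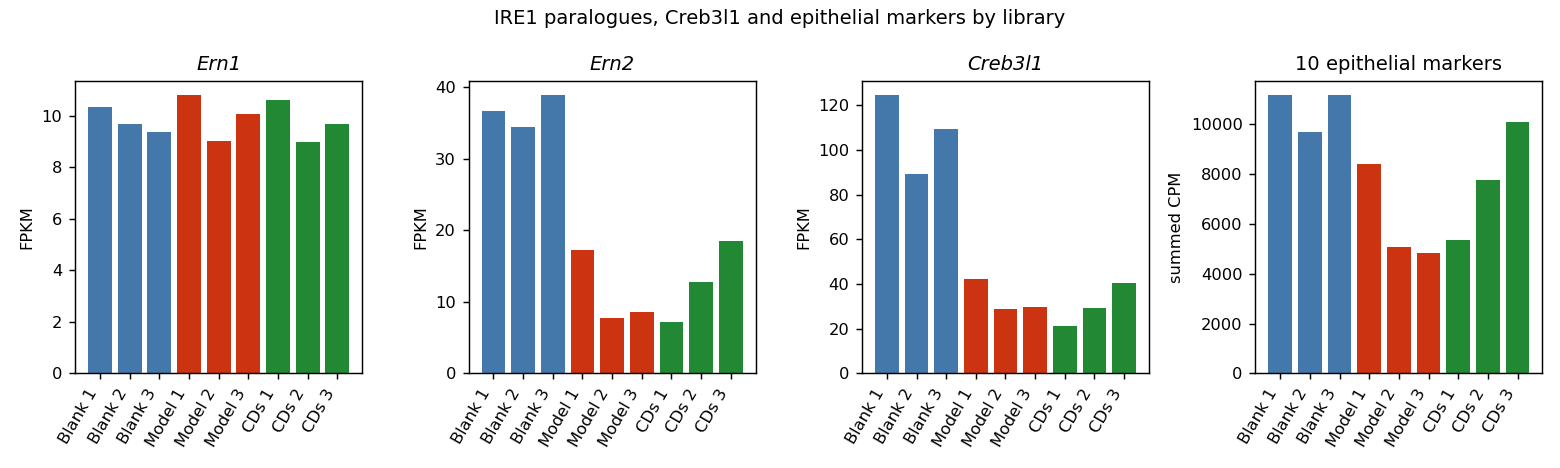
Deposited FPKM of Ern1, Ern2 and Creb3l1 in the 9 libraries, and the summed CPM of 10 epithelial markers. Ern1 stays between 9.01 and 10.8 FPKM in all libraries, while Ern2, Creb3l1 and the epithelial sum are lower in the Model libraries than in Blank.

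Epithelial RNA moved in the same direction. The sum of 10 epithelial markers was 9652 to 11147 CPM in Blank, 4818 to 8393 CPM in Model and 5323 to 10050 CPM in CDs, and 3 of the 10 were called lower in Model. The sum of 10 goblet cell markers was 24170 to 31988 CPM in Blank, 11802 to 30373 CPM in Model and 13868 to 29292 CPM in CDs, with 3 of 10 called lower. No defining epithelial or goblet marker was at 0 in any library. Set against the epithelial sum, Ern2 amounted to 10.08 to 10.99 CPM per 1000 CPM of epithelial markers in Blank, 4.28 to 6.16 in Model and 3.73 to 5.59 in CDs. For Creb3l1 these values were 24.9 to 30.1 in Blank, 13.2 to 16.6 in Model and 9.51 to 10.7 in CDs. Both ratios were lower in each treated library than in each Blank library. A sum does not show how single markers moved. In Model versus Blank their log2 fold changes ran from -1.78 to -0.39 (epithelial) and from -1.92 to 0.59 (goblet). Ern2 was at -1.76 and Creb3l1 at -1.73. Against the goblet sum, Ern2 amounted to 3.32 to 4.65 CPM per 1000 CPM in Blank and 1.26 to 1.92 in the treated libraries, again without overlap. The part of cell composition in the fall of Ern2 and Creb3l1 was not tested.

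Xbp1 and Atf4, the transcription factors downstream of IRE1 and PERK, are regulated by splicing and by translation, which gene counts do not show. Xbp1 measured 364, 284 and 281 CPM in Blank, 379, 451 and 441 CPM in Model and 572, 415 and 396 CPM in CDs. Treated and Blank libraries did not overlap, and CDs 1 was the highest. The log2 fold change in Model was 0.45 ± 0.18 (edgeR adjusted p = 0.0660), and Xbp1 was called in 4 of the 18 alternatives. Atf4 measured 126, 122 and 144 CPM in Blank, 140, 180 and 164 CPM in Model and 162, 160 and 162 CPM in CDs. Model 1 fell within the Blank range, and the difference of 0.30 ± 0.11 was not called (edgeR adjusted p = 0.0562). Ppp1r15a encodes GADD34, which directs dephosphorylation of eIF2 and so ends the translational block. It measured 20.1, 19.3 and 20.9 CPM in Blank, 25.3, 39.4 and 33.1 CPM in Model and 34.4, 27.7 and 29.0 CPM in CDs. All treated libraries lay above Blank, and the rise in Model was 0.70 ± 0.17 on the log2 scale (edgeR adjusted p = 0.00987). Ppp1r15a overlaps Tulp2 on the opposite strand over 21.4% of its span, where Tulp2 had 48 reads in all libraries together.

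**Figure D5:**
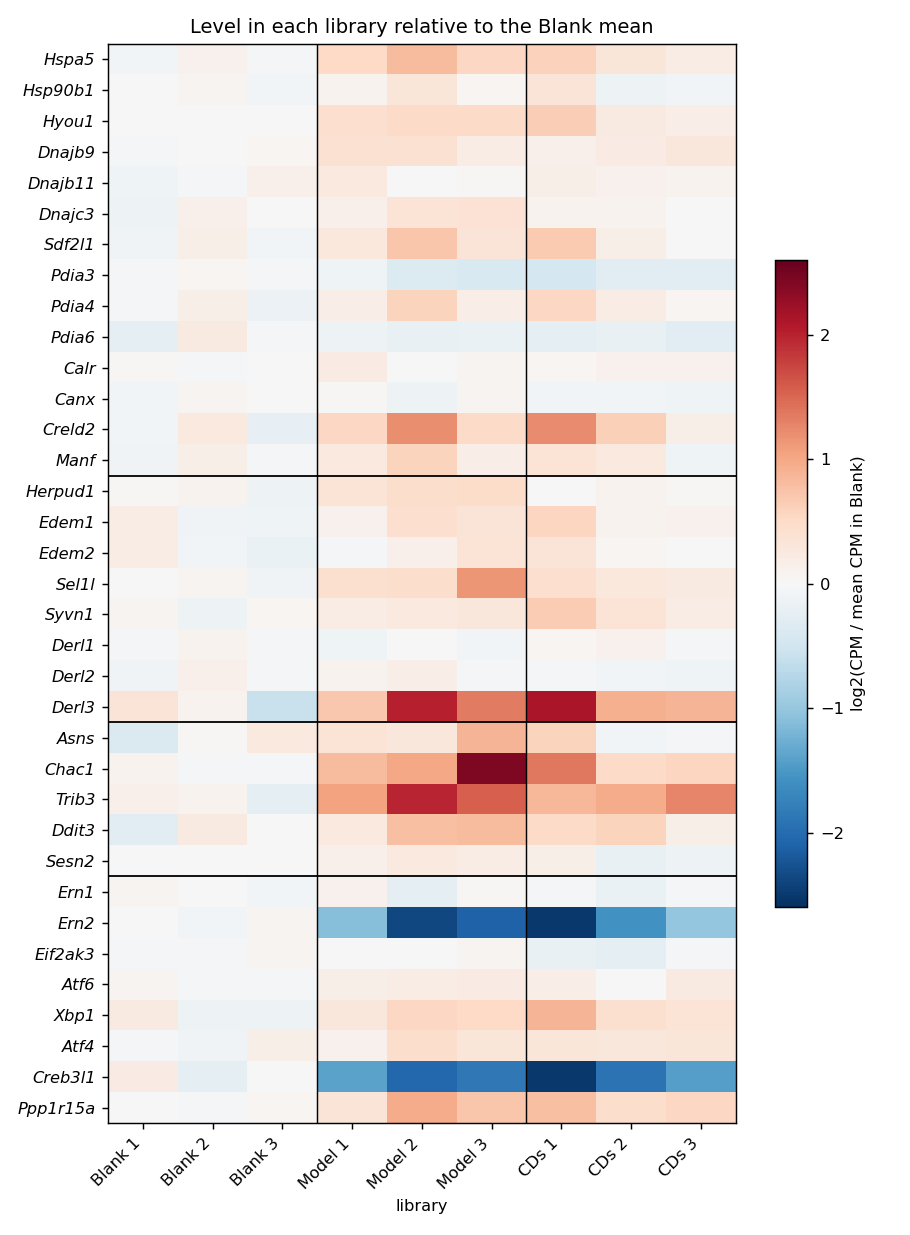
Log2 ratio of each member's CPM in each library to its mean in Blank (colour scale), with members in rows ordered by role and the 9 libraries in columns. The median ratio over members is 0.19, 0.36 and 0.30 in Model 1 to 3 and 0.34, 0.11 and 0.06 in CDs 1 to 3, and Ern2 and Creb3l1 are blue in all 6 treated libraries.

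Libraries within a group were unequal. The median member stood at 0.19, 0.36 and 0.30 (log2 ratio to the Blank mean) in Model 1, Model 2 and Model 3, and at 0.34, 0.11 and 0.06 in CDs 1, CDs 2 and CDs 3. CDs 1 was the highest library of its group for 21 of 35 members. Model 2 was the highest of all 9 libraries for 10 members, Model 3 for 8 and CDs 1 for 7. For the 5 ATF4 targets the medians were 0.35, 0.78 and 0.88 in Model and 0.58, 0.50 and 0.14 in CDs.

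The comparison of CDs with Model asks whether the carbon dots changed the DSS-treated colon. By edgeR, 0 of 35 members were called, as were 0 of all 14921 genes (0%), while DESeq2 called 51 genes. At an unadjusted p under 0.05 edgeR gave 1 member, beside 5.28% of all genes. That member was Herpud1, whose CDs values of 124, 131 and 127 CPM lay below all Model values and inside the Blank range. Its log2 fold change was -0.38 ± 0.09 (unadjusted p = 0.00217, edgeR adjusted p = 0.891), and DESeq2 called it (adjusted p = 0.0160). Across the alternatives its value ran from -0.42 to -0.35. Groups were apart, lower in CDs, for 4 members, Herpud1, Dnajc3, Pdia6 and Eif2ak3, beside 4.77% of all genes. Of the 35 members, 30 had a fold change below 0, beside 6689 of all 14921 genes, and the median was -0.10 beside 0.02 over all genes. For 16 of the members the direction turned in at least 1 alternative.

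By role, the medians in CDs versus Model were -0.09 for the chaperones, -0.03 for the degradation genes, -0.34 for the ATF4 targets and -0.05 for the sensors and factors. All 5 ATF4 targets were below 0, from -0.23 ± 0.21 for Ddit3 to -0.73 ± 0.44 for Chac1, with Trib3 at -0.56 ± 0.30, and none was called (edgeR adjusted p = 0.936 for each). For each of the 5 at least 1 CDs library lay within the Model range. Hspa5 had a log2 fold change of -0.25 ± 0.15 and Sel1l of -0.39 ± 0.19, with the CDs 1 values of both within the Model range. Ern2 and Creb3l1 were at 0.20 ± 0.39 and -0.16 ± 0.27 (not called), and Ern2 ran from 19.8 to 56.2 CPM within CDs alone. Left without Model 1, Model 3 and CDs 1, the comparison rests on Model 2 alone against CDs 2 and CDs 3. It then called 1241 of all genes (8.05%), with Hspa5 lower (-0.56, adjusted p = 0.0462) and Ern2 higher (1.12, adjusted p = 0.0282) among the members, where the spread of the lone Model library is taken from the remaining groups.

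Compared with Blank, the CDs group had 6 members called higher and 2 lower, beside 21.8% and 13.8% of all genes. This comparison and that of Model share the Blank libraries, and their values are given side by side only. Trib3 was at 1.02 ± 0.33 in CDs and 1.58 ± 0.32 in Model (log2), Derl3 at 1.43 and 1.46, Ppp1r15a at 0.59 and 0.70, and Hyou1 at 0.36 and 0.47. Xbp1 was called in CDs (0.57 ± 0.18, edgeR adjusted p = 0.0345) and not in Model (0.45 ± 0.18), and so was Syvn1, with 63.7, 51.5 and 45.6 CPM in CDs against 42.2, 36.6 and 41.4 CPM in Blank (0.42 ± 0.13, edgeR adjusted p = 0.0324). Herpud1 was at 0.04 ± 0.09 in CDs, Hspa5 at 0.38 ± 0.15 (edgeR adjusted p = 0.0810) and Chac1 at 0.86 ± 0.48. Ern2 was at -1.57 ± 0.40 (edgeR adjusted p = 0.0161, lost without CDs 2, where it was 0.0537, and without both Blank 2 and Blank 3, where it was 0.152) and Creb3l1 at -1.89 ± 0.28 (edgeR adjusted p = 0.00163). The 6 higher calls had edgeR adjusted p from 0.0232 to 0.0455, and each was lost in 6 to 16 of the 18 alternatives. With the replicate block, without Blank 2, without Blank 3 or without CDs 1 0 of them were made, and without Blank 1 only Xbp1 was called, while the Creb3l1 call held in every alternative.

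The rest of the pathway was read from 7 further lists, 144 genes in all, of which 143 were tested. In Model 22 of these were higher (15.4%) and 25 lower (17.5%), beside 24.5% and 19.6% of all genes, with a median log2 fold change of -0.03, the same as over all genes. ER translocation and glycosylation genes had 0 of 24 higher and 5 lower (20.8%, near the 19.6% of all genes), among them the oligosaccharyltransferase subunits Rpn1 (-0.46 ± 0.11, edgeR adjusted p = 0.0108) and Dad1 (-0.28 ± 0.08, adjusted p = 0.0256). The eIF2 kinases, eIF2 and its exchange factor eIF2B had 0 of 15 higher and 4 lower (26.7%), led by the eIF2B subunit Eif2b1 (-0.91 ± 0.16, edgeR adjusted p = 0.00241) and by Dele1, which relays mitochondrial stress to an eIF2 kinase (-0.59 ± 0.11, adjusted p = 0.00378). Other degradation genes had 2 of 20 higher (10%), the ubiquitin-conjugating enzyme Ube2g2 (0.57 ± 0.12) and Selenok (0.37 ± 0.13), and 3 lower (15%), among them the mannosidase Man1b1 (-0.44 ± 0.08) and the ubiquitin ligase Rnf5 (-0.85 ± 0.17). In other ER folding genes, 8 of 28 were higher (28.6%), among them Creld1 (0.63 ± 0.13) and the prolyl isomerase Fkbp7 (1.004 ± 0.229), and 7 lower (25%), among them the disulfide isomerase Pdia5 (-1.36 ± 0.21) and the Agr2 relative Agr3 (-4.06 ± 0.57).

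Transcription factors and outputs of the stress response split by gene. Of 13 other ER stress transcription factors and proteases 4 were higher (30.8%) and 1 was lower (7.69%) in Model, beside the same 24.5% and 19.6% of all genes. Cebpb, a partner of CHOP that is also induced by inflammatory cytokines, went from 3.25 ± 0.563 to 27.9 ± 8.33 CPM (mean ± SD, n = 3), or 3.10 ± 0.37 on the log2 scale (edgeR adjusted p = 0.000496). Within the family of Creb3l1, Creb3l2 was higher (0.85 ± 0.12, edgeR adjusted p = 0.000964) and Creb3l4 lower (-1.60 ± 0.33, adjusted p = 0.00550). Amino acid and tRNA synthetase targets of ATF4 had 4 of 30 higher and 4 lower (13.3% each). The subunits of the cystine transporter, Slc3a2 (0.92 ± 0.14) and Slc7a11 (2.31 ± 0.44), were higher, while Cth, which makes cysteine from cystathionine (-2.11 ± 0.38), and the neutral amino acid transporter Slc1a4 (-1.16 ± 0.30) were lower. Other outputs of ATF4 and CHOP had 4 of 13 tested higher (30.8%), among them Cebpd (2.75 ± 0.25) and the translation repressor Eif4ebp1 (1.22 ± 0.19), and 1 lower (7.69%), the pro-apoptotic Bbc3 (-1.20 ± 0.29).

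In CDs versus Model 0 of these 143 genes were called. The smallest p of the 143, and of all genes tested, belonged to Creb3l3, a membrane-bound transcription factor of the same family as Creb3l1. It measured 2.25, 3.91 and 3.10 CPM in Blank, 9.22, 9.07 and 6.37 CPM in Model and 2.49, 1.55 and 2.43 CPM in CDs. The Model libraries stood above all 6 others, and CDs and Blank overlapped. The log2 fold change was -1.93 ± 0.29 in CDs versus Model (unadjusted p = 8.44e-05, edgeR adjusted p = 0.891) and 1.41 ± 0.28 in Model versus Blank (edgeR adjusted p = 0.00429). Next came Pdia2, a disulfide isomerase of the pancreas, at 22.0, 0 and 195 CPM in Model and at most 0.960 CPM in CDs, the cyclophilin Ppib (-0.28 ± 0.09, unadjusted p = 0.00938) and the growth factor gene Vegfa (-0.28 ± 0.09, unadjusted p = 0.0140), each with an edgeR adjusted p of 0.891 to 0.904. Pdia2 followed the pancreatic markers, with its highest levels in Model 3 and Model 1.

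The calls among members with a promoter match are given as a description. Of the 9 members with an ERSE match, 2 were called higher in Model (Hspa5 and Derl3), beside 24.5% of all genes, and Hsp90b1, with 2 matches, was at 0.16 ± 0.16. Of the 4 members with a match to the ATF4 element, 3 were called higher (Chac1, Trib3 and Herpud1). Of the 2 members with an ERSE-II match, Herpud1 was called higher and Dnajb11 was not (0.09 ± 0.11, edgeR adjusted p = 0.489). Herpud1, whose window also holds a match to the ATF4 element, had the smallest p of the members when CDs was compared with Model.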

How the data were processed

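Per the file headers, the deposited table pairs each gene with a read count and with an FPKM value in every one of 9 colon libraries. Per the labels' protocols, poly-A RNA was copied with random primers, with no strand-marking step. The submitters' processing notes name fastp (version 0.22.0), HISAT2 (version 2.1.0) and HTSeq (version 0.9.1). No source used here names the genome build or the strand setting of the counting, which leaves overlapping genes uncertain. The deposited FPKM values equalled count per length and per total in 100% of values (relative tolerance 1e-06).

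Counts were tested in R 4.3.3 with edgeR 4.0.16 (quasi-likelihood F test, expression filter, TMM scaling, 1 coefficient per group in a fit of 9 libraries, 14921 genes). Two-sided p-values were adjusted over all genes by the Benjamini-Hochberg method, with a threshold of 0.05. CPM values are TMM-scaled. SE was derived from the log2 fold change and the F statistic. The test was checked on simulated counts. Members and lists were chosen with earlier results of these data known, and no list was tested as a set. Library values are given for members called in any comparison, for sensors, main factors, Hspa5 and the ATF4 targets. Each further list is represented by the 2 called higher and 2 called lower genes of smallest p in Model versus Blank, and CDs versus Model by the 4 genes of smallest p over all lists. Pdia3 and Creld2 were chosen for library values after those were seen.

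Alternatives comprised a block for the replicate number, a fit of the 6 libraries compared, leaving out each library, no filter, RLE scaling, DESeq2 1.42.0, limma 3.58.1 on log2(FPKM + 0.1) and log2(FPKM + 1), and the exclusion of libraries with pancreatic or prostate transcripts. The symbol Ddit3 occurs on 2 records, of which the one with reads was used.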

Additional observations from a re-analysis of the deposited data

How the results depend on the processing

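Whether replicate numbers pair the libraries was not tested. Between groups, correlations of same-numbered libraries ran from -0.37 to 0.21 and those of differently numbered libraries from -0.35 to 0.47. With the replicate number as a block, 11 members were higher and 2 lower in Model versus Blank, beside 3456 and 2216 of all 14921 genes. In CDs versus Model 0 members were called under the block. In CDs versus Blank, 0 were higher under the block instead of 6, and Atf4 in CDs versus Model turned to 0.0032.

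All 12 members called in Model versus Blank kept their direction in the 18 alternatives. Creb3l1 alone kept its call in all 18. With Creb3l1 included, 7 kept their call in every alternative other than the set without Blank 2 and Blank 3. Without those 2 libraries, Model versus Blank had 1536 genes called, with 0 members higher and 1 lower (0 chaperones, 0 degradation genes, 0 ATF4 targets and 1 of the sensors and factors), and CDs versus Blank had 465 genes, with 0 members higher and 1 lower. Without the libraries with pancreatic transcripts, Model versus Blank had 16 members higher and 3 lower (8 chaperones, 7 of them higher, and 5 of the sensors and factors, 3 of them higher). In this setting CDs versus Model had 1241 genes called, 1 member higher and 1 lower, and CDs versus Blank had 3 members higher. That setting leaves Model 2 as the only Model library, so its comparisons with Model rest on it. DESeq2 called 51 genes and 1 member lower in CDs versus Model, and 6 chaperones and 5 of the sensors and factors in Model versus Blank. With the 6 libraries compared, 5 chaperones were called.

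Leaving out each library in turn gave 4405 to 7459 genes called in Model versus Blank, with 6 to 13 members higher and 2 to 3 lower, 2 to 6 chaperones, 1 to 3 degradation genes, 1 to 3 ATF4 targets and 3 to 4 of the sensors and factors. The fewest members higher (6) came without Blank 3, and 1 ATF4 target was called without Blank 1, Blank 3 or Model 3. In CDs versus Blank the range was 3398 to 5540 genes, 0 to 6 members higher and 1 to 2 lower.

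Direction turned only in members not called in that comparison, at the following log2 fold changes. In Model versus Blank, Dnajb11 was at -0.016 and Derl1 at 6.1e-06 without pancreatic libraries, and Pdia6 at 0.059, Canx at 0.065 and Edem2 at -0.043 without Blank 2 and Blank 3. Canx was at 0.0010 with the 6 libraries, 0.0051 with RLE scaling, 0.0018 with DESeq2 and 0.040 with limma at either pseudocount, where Ern1 was at 0.021 and 0.019. In CDs versus Model without pancreatic libraries, Pdia3 was at 0.083, Calr at 0.10, Canx at 0.039, Ern1 at 0.14, Xbp1 at -0.15 and Creb3l1 at 0.38. Dnajb11 was at -0.0024 with RLE scaling and -0.0017 with DESeq2. With limma at pseudocounts of 0.1 and 1, Calr was at 0.015 in both, Edem2 at 0.0048 and 0.0049 and Atf4 at 0.030 and 0.029. In CDs versus Blank, Hsp90b1 was at -0.10 and Asns at -0.044 without pancreatic libraries, Edem2 at -0.064 and Derl2 at 0.0057 without Blank 2 and Blank 3, and with limma Derl2 was at 0.0015 and 0.0014 and Sesn2 at 0.020 and 0.018.

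With single libraries left out, the ranges that crossed 0 in Model versus Blank were -0.045 to 0.043 for Canx and -0.10 to 0.072 for Ern1. In CDs versus Model they were -0.093 to 0.086 for Atf4, -0.082 to 0.019 for Atf6, -0.057 to 0.054 for Calr, -0.45 to 0.075 for Creb3l1, -0.37 to 0.22 for Creld2, -0.56 to 0.37 for Derl3, -0.026 to 0.11 for Dnajb11, -0.19 to 0.060 for Edem1, -0.13 to 0.090 for Edem2, -0.16 to 0.015 for Ern1, -0.19 to 0.67 for Ern2, -0.10 to 0.042 for Pdia3, -0.19 to 0.11 for Pdia4, -0.26 to 0.056 for Ppp1r15a and -0.063 to 0.23 for Xbp1. In CDs versus Blank they were -0.043 to 0.35 for Asns, -0.0084 to 0.10 for Herpud1, -0.10 to 0.15 for Hsp90b1 and -0.16 to 0.018 for Sesn2. The cause of each of these differences between analyses was not tested. Depth limits Trib3 and Chac1, which rest on few reads per library.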
